A study of Mus musculus with 6 samples.

Results

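The 9 genes described here are neurotrophins, ligands of the GDNF family and receptors of both, which together form the main trophic signalling systems of peripheral neurons: Bdnf, Ntf3, Gdnf, Artn, Ngfr, Ntrk2, Ntrk3, Gfra1 and Gfra3. They were chosen by name, with earlier results of these data known. Of the 9, 8 were found among the 20173 genes of the deposited count table (Ntf3 was not analysed here). RNA of cultured cells was sequenced in 6 libraries. Of these, 3 are labelled SLIT2f/f (called Slit2fl/fl in the study and here), in which Slit2 is floxed on both alleles and no Cre is named. The other 3 are labelled SLIT2-knockout (Slit2th), in which a Th-Cre transgene deletes the same floxed Slit2. Th-Cre places the recombinase under the tyrosine hydroxylase promoter, and which cells of a culture had recombined Slit2 was not measured. Per the study's methods, sympathetic chains of 3-week-old male mice were dissociated and kept in medium with B27 for 4 to 5 days, although its isolation protocol names dorsal root neurons. The labels give sympathetic ganglion as the tissue and neuron as the cell type, and do not say how many mice or cultures stand behind a library, so p-values measure only the spread between these libraries, which may be technical.

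Neurotrophins are secreted as precursors and act through Trk receptor kinases, each with its preferred ligand (TrkB, the product of Ntrk2, for BDNF; TrkC, of Ntrk3, for NT-3), and through the shared receptor p75, the product of Ngfr. GDNF family ligands bind a membrane-anchored GFRα protein (GFRα1 for GDNF, GFRα3 for artemin), which presents them to the kinase Ret. Developing sympathetic neurons use artemin for early migration and axon growth, whereas Schwann cells that have lost axonal contact are known to produce p75, BDNF, GDNF and artemin.

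Total counts ranged from 1533367 to 3155406 in Slit2fl/fl and from 1255939 to 1999485 in Slit2th. A floor of 3 counts corresponds to between 0.951 CPM (counts scaled to the library total) and 2.39 CPM depending on the library, and this floor covers counting error only. Except for floors and the filter that kept genes for testing, CPM below were also scaled by TMM (edgeR's trimmed mean of M values). Both libraries numbered 1 stood apart: over the tested genes, log2 CPM of Slit2fl/fl replicate 1 correlated with the other 5 libraries at r = 0.79 to 0.86 and that of Slit2th replicate 1 at 0.82 to 0.87, against 0.92 to 0.97 among the other 4. The targeted gene went with its label, with 44.5, 55.1 and 43.8 CPM of Slit2 in Slit2fl/fl replicates 1 to 3 against 15.0, 11.5 and 15.2 CPM, respectively, in those of Slit2th, a log2 fold change of -1.78 (edgeR adjusted p = 0.422). Most defining markers of the labelled cell type had few or no counts. Th was at 0 counts in all 6 libraries, and 10 of the 14 sympathetic neuron markers in the table had 10 or fewer counts over all libraries together, as did 9 of the 10 sensory neuron markers. The other 4 sympathetic neuron markers had more, with Tubb3, Uchl1 and Stmn2 the highest. All 14 together summed to between 170 and 574 CPM in Slit2fl/fl and between 185 and 191 CPM in Slit2th. Markers of Schwann cells and satellite glia summed to between 5095 and 11455 CPM in Slit2fl/fl and between 12898 and 19274 CPM in Slit2th, with S100b and Cdh19 among the highest. The values below are therefore those of whole cultures, in which fewer cells of a type and less RNA per cell cannot be told apart.

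The p75 receptor gene Ngfr was by far the most abundant of the 8 genes, and all but Artn and Gfra3 were above 3 counts in every library. To compare levels between genes, these TMM-scaled CPM were divided by the length of each gene's merged exons. On this scale Ngfr stood at 142 CPM per kb (range over the 6 libraries 89.8 to 218), Gfra1 at 26.6 (13.2 to 57.8), Gdnf at 13.4 (9.83 to 20.1) and Bdnf at 9.43 (5.72 to 14.4). Ntrk2 followed at 2.12 CPM per kb (1.41 to 3.25), Artn at 0.863 (0.367 to 1.60), Gfra3 at 0.569 (0 to 1.76) and Ntrk3 at 0.344 (0.0637 to 0.761). The ranges of Ngfr and Gfra1 did not overlap, nor did those of Bdnf and Ntrk2, while every other pair of neighbours in this order overlapped. Gdnf was above Bdnf in 4 of the 6 libraries, and both were above Ntrk2 in all 6. In GRCm38 the plus-strand genes besides Bdnf are Gdnf (chromosome 15, 7810846 to 7837575) and Ntrk2 (chromosome 13, 58806569 to 59133970). On the minus strand lie Artn (chromosome 4, 117926162 to 117929763), Ngfr (chromosome 11, 95568818 to 95587735), Ntrk3 (chromosome 7, 78175959 to 78738012) and Gfra1 (chromosome 19, 58235604 to 58455909). Ntrk2 and Ntrk3 have long merged exons (19.3 and 30.2 kb), over which a gene count spreads if short transcripts dominate. The annotated coding transcripts of Ntrk2 run from 466 to 821 codons and those of Ntrk3 from 612 to 864, the short forms of both lack the kinase, and gene counts do not tell the forms apart.

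**Figure D1:**
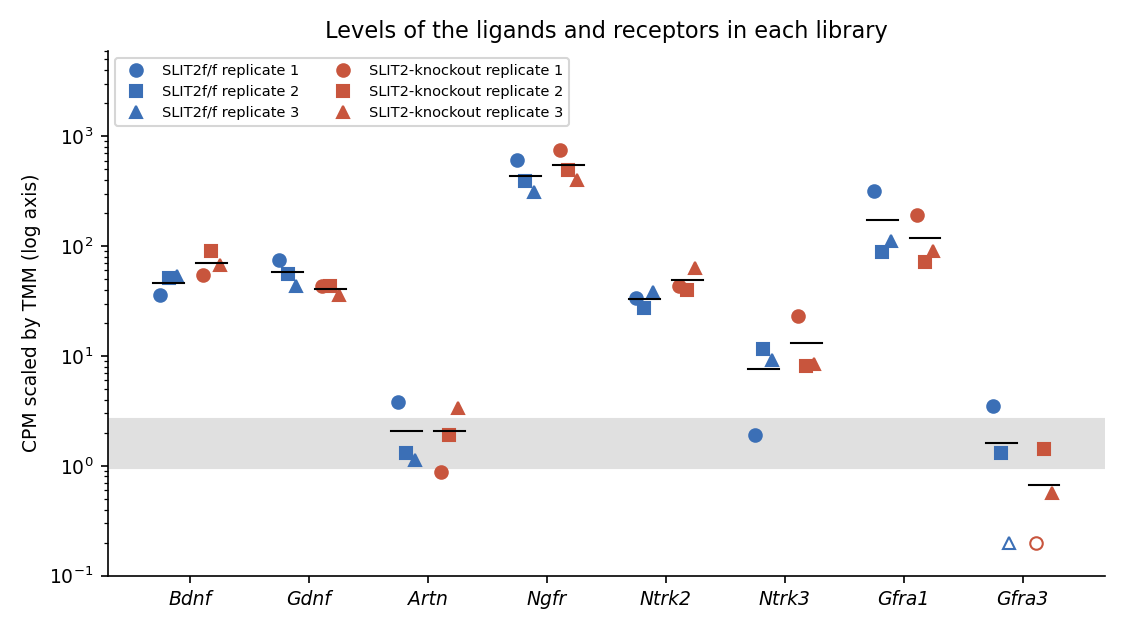
CPM scaled by TMM (log axis) of the 8 genes in each library, SLIT2f/f (Slit2fl/fl) in blue and SLIT2-knockout (Slit2th) in red, with the replicate number as the symbol, a bar at the group mean, open symbols near the axis for 0 counts, and a grey band at the level of 3 counts. Ngfr lies above all other genes in every library, Bdnf and Ntrk2 are higher in all 3 red libraries, and Artn and Gfra3 lie at or near the band.

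Between the genotypes, none of the 8 genes passed an adjusted p of 0.05 in edgeR's quasi-likelihood test, nor did any of the 12152 genes tested (0%). None of the 8 passed an unadjusted p of 0.05 either, against 10.8% of all genes tested, and their adjusted p-values ran from 0.535 to 0.980. All 8 passed the filter of at least 1 CPM in at least 3 libraries, with log2 fold changes above 0 for 4 and below 0 for the other 4. For 3 of the 8 (Bdnf and Ntrk2 higher, Gdnf lower in Slit2th) the values of both groups did not overlap, compared with 18.5% of all genes tested (8.74% higher and 9.72% lower in Slit2th). With 3 libraries against 3, the smallest p a two-sided exact permutation test can give is 0.1, so non-overlap by itself does not reach 0.05.

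Of the ligands, Bdnf, a neurotrophin made by neurons, Schwann cells and other cells, was higher in every Slit2th library. Slit2fl/fl replicates 1 to 3 had 35.5, 51.2 and 52.9 CPM, and the Slit2th libraries had 54.7, 89.7 and 67.7 CPM. The groups did not overlap, although the lowest Slit2th and the highest Slit2fl/fl library were close. The means were 46.5 ± 9.56 and 70.7 ± 17.7 CPM (SD, n = 3 each), and the log2 fold change was 0.61 with a 95% interval from -0.21 to 1.43 (edgeR adjusted p = 0.535). Scaled by library totals alone, the groups overlapped. The Bdnf gene lies on chromosome 2 (GRCm38, 109674700 to 109727007, plus strand), and its exons share 896 bases with Gm45346 on the opposite strand; since the strand setting of the counting is not given in the sources used here, reads there cannot be assigned to either gene.

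Gdnf, the ligand of GFRα1, was lower in Slit2th, by a narrow margin. It had 74.0, 55.7 and 43.8 CPM in the Slit2fl/fl libraries and 43.2, 43.4 and 36.1 CPM in the Slit2th libraries. Only the small gap between Slit2fl/fl replicate 3 and Slit2th replicate 2 kept the groups apart, and they overlapped when scaled by library totals or by DESeq2 size factors. The means were 57.8 ± 15.2 and 40.9 ± 4.16 CPM (SD, n = 3 each), with a log2 fold change of -0.50 (95% interval -1.31 to 0.31, edgeR adjusted p = 0.588). Without Slit2fl/fl replicate 1, its highest library, the log2 fold change was -0.28.

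Artn encodes artemin, the ligand of GFRα3, and was barely detected. It had 12, 2 and 2 counts in Slit2fl/fl and 1, 4 and 6 in Slit2th, and passed 3 counts in 3 of the 6 libraries. Its log2 fold change of -0.06 had a 95% interval from -1.87 to 1.76 (edgeR adjusted p = 0.980) and changed sign when Slit2fl/fl replicate 1 was left out (0.79), or Slit2th replicate 1 (0.23) or 2 (0.04). In linear terms the interval ran from 0.273 to 3.38 times the Slit2fl/fl level, so the data leave its size and direction undetermined.

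Of the receptors, Ngfr encodes p75, a member of the TNF receptor family that binds all neurotrophins and their precursors. Its 604, 392 and 309 CPM in the Slit2fl/fl libraries overlapped the 751, 492 and 396 CPM of the Slit2th libraries. In both groups the library numbered 1 was the highest. The log2 fold change was 0.33 (95% interval -0.56 to 1.22, edgeR adjusted p = 0.743). At 5621 counts over the 6 libraries, counting error is small beside the spread between libraries for this gene.

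Ntrk2, the gene of the BDNF receptor TrkB, moved in the same direction as its ligand. The Slit2fl/fl libraries had 33.9, 27.2 and 38.1 CPM and the Slit2th libraries 43.2, 40.1 and 62.6 CPM. All 3 Slit2th libraries were above all 3 Slit2fl/fl libraries, and Ntrk2 was the one gene of the 8 for which this held under all 3 scalings tried (TMM, library totals and DESeq2 size factors). The means were 33.1 ± 5.49 and 48.7 ± 12.2 CPM (SD, n = 3 each), and the log2 fold change was 0.56 (95% interval -0.27 to 1.38, edgeR adjusted p = 0.561). Ntrk3, the gene of TrkC, stood at 1.92, 11.7 and 9.10 CPM in the Slit2fl/fl libraries against 22.9, 8.11 and 8.47 CPM in the Slit2th libraries. Its lowest and its highest value were both in libraries numbered 1, and the other 4 were alike. The log2 fold change of 0.81 (95% interval -0.82 to 2.44, edgeR adjusted p = 0.654) accordingly became -0.33 without both libraries numbered 1.

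The GDNF coreceptor gene Gfra1 had the second highest mean level of the 8, with its highest value in Slit2fl/fl replicate 1. Slit2fl/fl replicates 1 to 3 had 316, 88.1 and 112 CPM, and those of Slit2th 193, 72.0 and 90.9 CPM. The groups overlapped, and in both of them replicate 1 was the highest. The log2 fold change of -0.54 (95% interval -1.83 to 0.74, edgeR adjusted p = 0.702) became 0.25 without Slit2fl/fl replicate 1. Exons of Gfra1 share 416 bases with Gm16277 on the opposite strand. Gfra3, the artemin coreceptor gene, was found at 11, 2 and 0 counts in Slit2fl/fl and 0, 3 and 1 in Slit2th, and exceeded 3 counts in 1 library only, again Slit2fl/fl replicate 1. Its log2 fold change of -1.15 had an interval from -3.89 to 1.59 (edgeR adjusted p = 0.706), and its direction is undetermined.

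**Figure D2:**
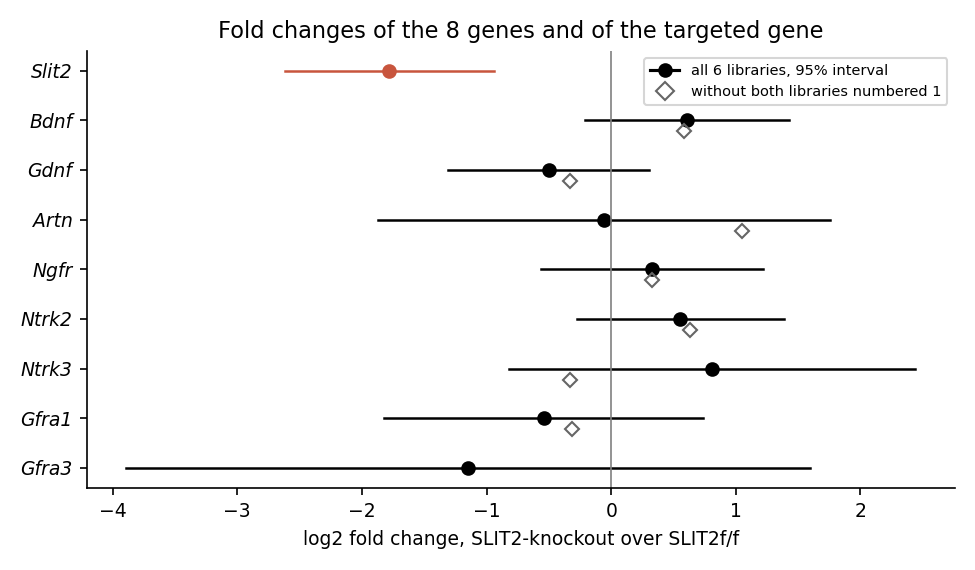
Log2 fold change of SLIT2-knockout (Slit2th) over SLIT2f/f (Slit2fl/fl) for the 8 genes (black) and for the targeted gene Slit2 (red), with 95% intervals from edgeR's quasi-likelihood fit; open diamonds give the value without both libraries numbered 1. The interval of Slit2 lies below 0, those of all 8 genes include 0, and the diamonds of Artn and Ntrk3 lie on the other side of 0 from their circles.

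Without both libraries numbered 1, the groups did not overlap for 6 of the 8 genes (Bdnf, Ntrk2, Ngfr and Artn higher, Gdnf and Ntrk3 lower in Slit2th), but with 2 libraries against 2 this was so for 47.6% of all genes tested. Bdnf then had an unadjusted p under 0.05 (edgeR), as did 17.4% of the 11473 genes in that fit, with a log2 fold change of 0.59 (edgeR adjusted p = 0.237). Ngfr kept its value of 0.33 (edgeR adjusted p = 0.431) and Ntrk2 stood at 0.63 (edgeR adjusted p = 0.320). With all 6 libraries, glial marker sums were higher in each Slit2th than in each Slit2fl/fl library, macrophage markers summed to 23.3 to 75.6 CPM in Slit2fl/fl against 104 to 591 CPM in Slit2th, and proliferation markers to 289 to 380 CPM and 123 to 233 CPM. The part of these markers in the values of the 8 genes was not tested.

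The 250 bases before annotated starts are shown for Bdnf, Gdnf and Ntrk2, the genes whose groups did not overlap. They are RefSeq sequences of GRCm38.p6, written 5′ to 3′ on the plus strand, which is the coding strand of all 3 genes. RefSeq lists 7 starts for Bdnf, and counts per gene do not tell which were in use; the outermost is shown, together with an inner one, the only start of the 7 whose window holds TGACG, the core of the cyclic AMP response element. The window of the inner start lies within the gene and overlaps no annotated exon, and the other windows shown lie before the annotated gene. Capitals mark matches, on either strand, to TGACG, to the AP-1 element written as TGANTCA, to the TATA box written as TATAAA or to the GC box written as GGGCGG. These motifs were picked after the sequences were seen.
Bdnf, outermost start, chr2:109674450-109674699: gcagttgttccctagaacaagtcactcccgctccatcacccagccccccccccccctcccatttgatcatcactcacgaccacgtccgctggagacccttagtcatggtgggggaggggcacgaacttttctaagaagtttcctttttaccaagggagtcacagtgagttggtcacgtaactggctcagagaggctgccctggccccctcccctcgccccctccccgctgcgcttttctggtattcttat
Bdnf, inner start, chr2:109692186-109692435: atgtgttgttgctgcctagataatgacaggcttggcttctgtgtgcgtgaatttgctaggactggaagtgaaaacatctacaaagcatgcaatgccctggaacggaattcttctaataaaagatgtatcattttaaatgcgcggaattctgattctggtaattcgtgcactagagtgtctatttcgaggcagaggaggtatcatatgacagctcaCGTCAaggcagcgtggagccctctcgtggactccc
Gdnf, first start, chr15:7809798-7810047: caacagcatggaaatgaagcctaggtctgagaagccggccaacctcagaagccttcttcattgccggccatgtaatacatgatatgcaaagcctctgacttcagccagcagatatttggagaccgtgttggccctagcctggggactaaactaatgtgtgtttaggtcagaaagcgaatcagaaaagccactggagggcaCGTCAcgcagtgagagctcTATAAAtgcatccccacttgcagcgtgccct
Ntrk2, chr13:58806319-58806568: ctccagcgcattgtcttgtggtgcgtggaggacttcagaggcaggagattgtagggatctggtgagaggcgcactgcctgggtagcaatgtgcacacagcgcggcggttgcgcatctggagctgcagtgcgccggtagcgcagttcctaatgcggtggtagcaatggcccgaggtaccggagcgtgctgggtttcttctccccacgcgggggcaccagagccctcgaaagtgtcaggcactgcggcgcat
The inner Bdnf window and the Gdnf window each hold TGACG once, read on the minus strand, ending 31 and 46 bases before the start, and the Gdnf window also holds TATAAA, from 31 to 26 bases before it. The outermost Bdnf window and the Ntrk2 window hold none of the 4 motifs, nor does the window of a further Gdnf start, which is not shown. Of all 32851 RefSeq windows of the same length, 17.8% hold TGACG, 6.75% the AP-1 element, 12.4% TATAAA and 32.7% the GC box. These shares are per window. Since the inner Bdnf window was picked from 7 for its TGACG, the shares do not measure how unusual that match is. The windows of Ntrk2 and of the outermost Bdnf start are 62.8% and 58% G and C, against 50.8% for Gdnf, 45.6% for the inner Bdnf start and a median of 52.4% over all windows. A match describes letters and is not evidence of a bound factor.

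Since Bdnf and Gdnf lay on opposite sides, their counts were also set against each other within each library, which needs no scaling; this ratio was chosen after the values were seen. There were 2.08, 1.09 and 0.828 Gdnf counts per Bdnf count in Slit2fl/fl and 0.790, 0.484 and 0.533 in Slit2th. The groups did not overlap, which follows from the CPM of both genes, and the nearest libraries, Slit2fl/fl replicate 3 and Slit2th replicate 1, had 0.828 and 0.790. On the log2 scale the ratio was 0.30 ± 0.68 in Slit2fl/fl and -0.76 ± 0.37 in Slit2th (SD, n = 3 each), a difference of -1.07, given without a test. Leaving out a library or a replicate number gave differences from -1.35 to -0.69.

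**Figure D3:**
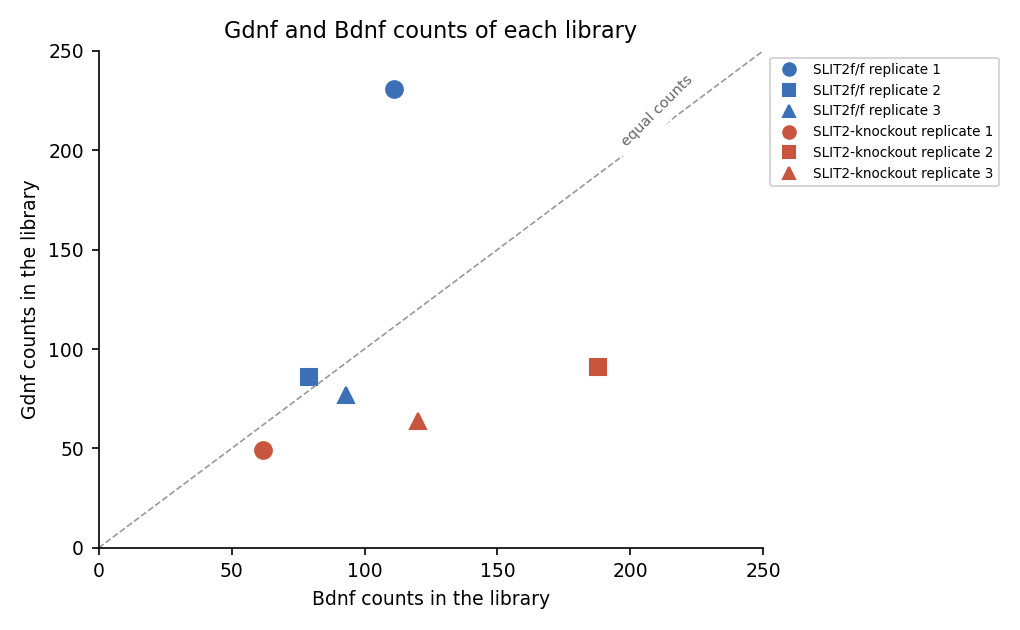
Deposited Gdnf counts (vertical) against Bdnf counts (horizontal) of each library, SLIT2f/f (Slit2fl/fl) in blue and SLIT2-knockout (Slit2th) in red, with the replicate number as the symbol and a dashed line at equal counts. The 3 red libraries lie below the line, at ratios of 0.484 to 0.790, while 2 of the 3 blue libraries lie above it.

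The other 16 ligands and receptors of both families show, where they are reported here, which routes of signalling had transcripts in these cultures. Ret, the signalling kinase of the GDNF family, was missing at this depth, with 0 counts in all 6 libraries, as was Gfral, the GDF15 receptor. With 11393245 counts over all libraries, 0 counts allow up to 0.263 CPM for each of them. Of the further ligands, Ntf5 (NT-4), Nrtn (neurturin) and Pspn (persephin) had 1 or 2 counts in all, and Gdf15 had at most 2 counts in any library.

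Several coreceptors were present. Gfra2, the neurturin coreceptor gene, had 59.9, 79.1 and 63.7 CPM in the Slit2fl/fl libraries, 97.1, 70.1 and 58.1 CPM in the Slit2th libraries and, at 20.2 CPM per kb, a level close to that of Gfra1. Ncam1, whose product serves GDNF and GFRα1 as an alternative receptor, had 48.7 ± 7.20 and 64.9 ± 12.7 CPM (SD, n = 3 each), with a log2 fold change of 0.41 (edgeR adjusted p = 0.633). Of the sortilin family, whose members bind precursors of neurotrophins together with p75, Sort1 stood at 3.66 CPM per kb, Sorcs2 at 2.61 and Sorcs1 at 2.18, whereas Sorl1 and Sorcs3 were at or under 0.1 CPM per kb and Gfra4 at 0.304. Sort1 had 31.1 CPM in Slit2fl/fl replicate 1 and 91.8 CPM in Slit2th replicate 1 but 9.59 to 11.9 CPM in the other libraries, so that it was high in both libraries numbered 1 alone. Of the 8 of these 16 genes that were tested, log2 fold changes were above 0 for 4 and below 0 for the other 4, with a median of 0.01 against -0.05 over all genes tested.

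**Figure D4:**
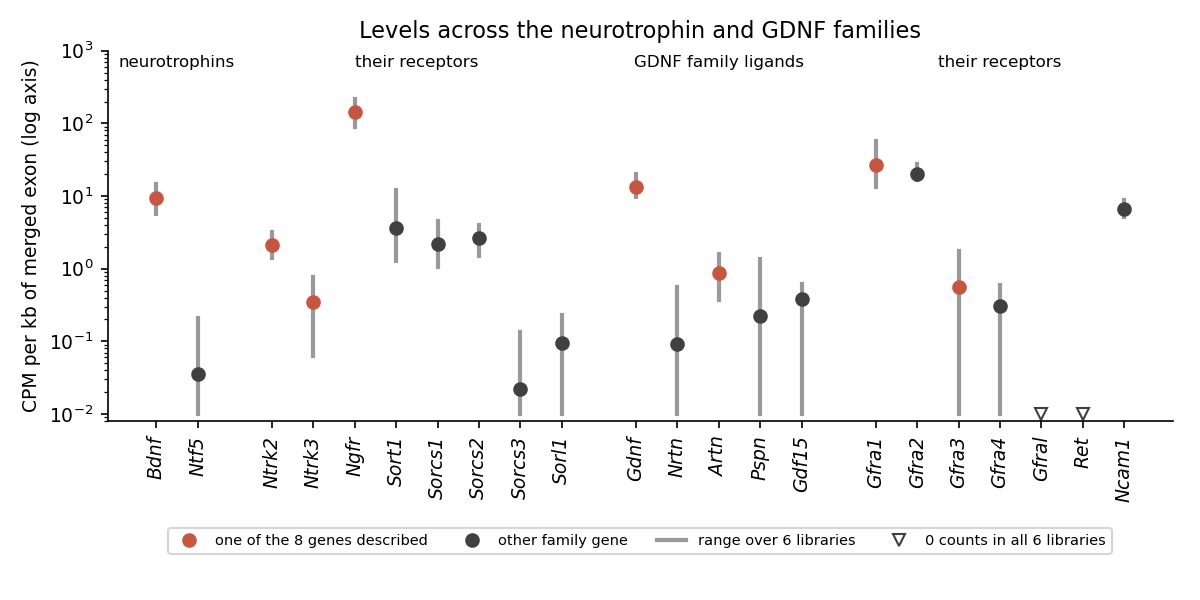
Mean CPM per kb of merged exon (log axis) of neurotrophin and GDNF family ligands and receptors, with the 8 genes described in red, the other family genes in grey-black, grey lines for the range over the 6 libraries (cut at 0.01 where a library had 0 counts) and open triangles for genes at 0 counts in all 6. Ngfr, Gfra1 and Gfra2 are the highest, and Ret and Gfral are at 0.

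Beyond receptors and ligands, 6 lists of genes that act with them were examined, and no gene of any list passed an adjusted p of 0.05 in edgeR's test. Together with the 16 family genes these lists hold 83 genes, of which 61 were tested, and 10 of those had an unadjusted p under 0.05 (16.4%, against 10.8% of all genes), 4 higher and 6 lower in Slit2th. Among adaptors of Trk and Ret kinases, 6 of the 16 tested had log2 fold changes above 0 and 10 below, with a median of -0.26. Grb2, the adaptor that links receptors to Ras, had 98.9 ± 8.34 and 84.8 ± 22.6 CPM (SD, n = 3 each), Shc4 a log2 fold change of -1.01 (SE 0.44) and Gab1 of 0.69 (SE 0.36). Shc1 at -1.54 and Dok4 at -2.41, named after their values were seen, and Shc4 were the 3 with an unadjusted p under 0.05 (edgeR).

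Of the partners of p75, 3 of the 9 tested had log2 fold changes above 0 and 6 below (median -0.59). Without Slit2fl/fl replicate 1 this median was -0.002. Maged1, whose product binds the intracellular part of p75, had 141 ± 106 and 63.0 ± 8.12 CPM (SD, n = 3 each). Its Slit2fl/fl replicate 1 had 263 CPM, against 83.0 and 76.8 CPM in replicates 2 and 3. Irak1 stood at -0.05 and Arhgdia at -0.64 on the log2 scale. Tnfrsf19, named after its values were seen, was barely detected, with 1, 0 and 0 counts in Slit2fl/fl and 2, 6 and 2 in Slit2th. It exceeded 3 counts in 1 library only, and its group means were 0.107 and 1.92 CPM. Genes that process neurotrophin precursors were mostly higher in Slit2th, 4 of the 5 tested (median 0.82). Plat, tissue plasminogen activator, which starts the plasmin cascade that cleaves proBDNF, had 52.5, 60.3 and 77.9 CPM in the Slit2fl/fl libraries against 112, 115 and 116 CPM in the Slit2th libraries, a log2 fold change of 0.85 (edgeR adjusted p = 0.430). Furin, a convertase of precursors, had a log2 fold change of -0.44.

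Neuropoietic cytokines and receptors, a further family of trophic factors for peripheral neurons, had 5 positive and 2 negative log2 fold changes among the 7 tested (median 0.32). Il6st, the gene of the shared receptor gp130, had 158, 215 and 196 CPM in the Slit2fl/fl libraries against 714, 287 and 322 CPM in the Slit2th libraries, without overlap, and a log2 fold change of 1.22 (edgeR adjusted p = 0.422). Lifr, its partner in the receptor for LIF and CNTF, was named after its values were seen. It had 3.20, 5.83 and 2.84 CPM in the Slit2fl/fl libraries against 42.4, 3.82 and 8.47 CPM in the Slit2th libraries. The groups overlapped, and the log2 fold change was 2.17 (edgeR adjusted p = 0.447), with the highest value in Slit2th replicate 1. The ligands Clcf1 and Cntf had log2 fold changes of 0.19 and -0.07. Genes that respond to growth factor signalling had 4 positive and 5 negative values (median -0.25). Egr1, an immediate early gene, had 358 ± 63.5 and 301 ± 50.1 CPM (SD, n = 3 each), Dusp6 a log2 fold change of 0.55 and Spry2 of -0.53, and Etv5, named after its values were seen, of -2.18. Repair Schwann cell genes, listed as marks of denervated Schwann cells, had sums from 2128 to 3363 CPM over both groups and a median log2 fold change of 0.08 over the 7. Most of each sum came from Fgf5 and Sox2, so the sums do not show that the list as a whole was abundant. Fgf5 had 1101 ± 183 and 899 ± 221 CPM and Sox2 725 ± 333 and 1187 ± 76.8 CPM (SD, n = 3 each), and Btc a log2 fold change of 0.59 (edgeR adjusted p = 0.524).

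The genes whose log2 CPM followed that of the 3 genes with the highest mean CPM (Ngfr, Gfra1 and Bdnf) most closely over the 6 libraries are given as a description, with Pearson's r. For Ngfr these were Rbms2 (r = 0.99), Atg7 (0.98) and Tmem134 (0.97). For Gfra1 they were Myl12b, Rplp0 and Cercam (0.99 or above), and for Bdnf Fam169a, Zfp606 and Myof (0.99 each). With 6 libraries such values are common: 23 genes had an r above 0.95 with Ngfr, 56 with Bdnf and 218 with Gfra1, and the libraries share depth and replicate 1 as sources of covariation.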

How the data were processed

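RNA of cultured cells was sequenced in 6 TruSeq libraries, 3 per genotype. Per the study's methods the reads were aligned to mm10 with HISAT2 2.2.1; the labels name GRCm39. The authors deposited whole-number counts per gene, not normalized; the counting program, strand setting and annotation are not given in the sources used here. All per-sample columns were used. Members were taken by gene name, and members and lists were chosen with earlier results of these data known. Identifiers were joined to GENCODE M21 (GRCm38), in which 20159 of 20173 were found. Genes with at least 1 CPM in at least 3 libraries were kept, scaled by TMM and tested with edgeR 4.0.16 (quasi-likelihood test, no covariates, Benjamini-Hochberg adjustment over all genes tested) in R 4.3.3, a procedure checked on simulated counts. For single genes, log2 CPM (prior count 2) went into a two-sided exact permutation test. Alternatives used DESeq2 1.42.0, limma 3.58.1, other scalings and filters, a replicate block and leaving out libraries. Named were all members, Slit2, Th, the family list, at most 3 genes of highest mean CPM per other list, and the 3 genes most like each of the 3 highest members; others are marked. Ntf3, Grb7, Plg, Mmp7, Dbh and Hand2 were not analysed here. A few list genes enter the counts but are not reported here. RefSeq promoter windows were found for 7 of the 9 members.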

Additional observations from a re-analysis of the deposited data

How the results depend on the processing

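The direction of Bdnf, Gdnf, Ngfr and Ntrk2 was the same under all 18 alternatives, and no member passed the adjusted threshold under any of them. For Ngfr, however, the log2 fold change fell to 0.03 without Slit2th replicate 1 and to 0.08 without Slit2fl/fl replicate 3. Genes past that threshold numbered 0, but 7 with no filter, 34 by DESeq2's Wald test, 17 by edgeR's exact test, and 0 to 377 when libraries were left out, the latter without both libraries numbered 1. Genes with an unadjusted p under 0.05 numbered 1309, and 653 to 1999 when libraries were left out. For the members that number was 0 and ranged from 0 to 1 when libraries were left out. Members whose groups did not overlap numbered 3, but 1 under library totals (Ntrk2), and 3 to 6 when libraries were left out. When libraries were left out, log2 fold changes of Artn ran from -0.85 to 1.05, of Ntrk3 from -0.33 to 1.54, of Gfra1 from -1.08 to 0.25 and of Gfra2 from -0.16 to 0.31, so each changed sign. Slit2 passed the adjusted threshold without both libraries numbered 1 (-1.90, edgeR adjusted p = 0.00689). Deviations of same-numbered libraries from their group means correlated at 0.29, 0.24 and 0.08, against -0.31 to 0.25 between groups for other numbers. Whether the numbers pair the libraries stays unsettled, and the main fit did not pair them. With the replicate block, 0 genes passed the adjusted threshold, 1614 had an unadjusted p under 0.05, and the log2 fold change of Artn was 0.078. That of Ngfr was 0.33 (SE 0.30, against 0.39 without the block) and that of Gfra1 -0.44 (SE 0.30, against 0.57). The SE also fell for Bdnf, Gdnf and Ntrk2, and rose for Artn, Ntrk3 and Gfra3. Artn and Gfra3 rest on 27 and 17 counts in all.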

Other observations

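Fibroblast genes were also abundant in these cultures, with list sums of 2425 to 3175 CPM in Slit2fl/fl and 3076 to 4371 CPM in Slit2th. Col1a2, a collagen chain gene, had 1678 ± 302 and 2246 ± 421 CPM (SD, n = 3 each), and the proteoglycan gene Dcn 419 ± 127 and 650 ± 198 CPM. Sox10, the glial transcription factor gene, had 586 ± 130 and 537 ± 84.1 CPM (SD, n = 3 each). The macrophage gene Lyz2 had 37.1, 42.8 and 17.1 CPM in the Slit2fl/fl libraries against 285, 69.2 and 79.0 CPM in the Slit2th libraries, and 7 of the 7 macrophage genes tested had a positive log2 fold change, none past the adjusted threshold. Of the proliferation genes, 8 of the 8 tested had a negative log2 fold change, with 103 ± 8.37 and 47.1 ± 23.6 CPM for Mki67 (SD, n = 3 each). Endothelial markers summed to 42.1 to 129 CPM and 48.7 to 55.6 CPM in Slit2fl/fl and Slit2th, and smooth muscle and pericyte markers to 17.1 to 92.9 and 15.0 to 37.3 CPM.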
